A study of Mus musculus with 2 samples.

Results

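Transcripts of 10 genes that encode subunits of the AP-1 and BATF transcription factors were compared between freshly isolated and IL-2 expanded γδ T cells of mouse spleen. γδ T cells carry an antigen receptor built from a γ and a δ chain in place of α and β. The genes were Fos, Fosb, Fosl1 and Fosl2 (the FOS family), Jun, Junb and Jund (the JUN family), Batf and Batf3 (the BATF family) and Atf3. They were taken by gene symbol from a table of read counts for 24091 genes, and all 10 were present and passed the filter on low values, 1 CPM or more as the mean of both libraries, where CPM is counts per 1000000 of the library's scaled size. RNA-seq of total RNA gave 2 libraries, 1 from cells labelled freshly isolated and 1 from cells labelled IL-2 expanded. The mouse strain, age and sex and any pooling of animals are not given in the sources used here. Per the labels' protocols, cells sorted by flow cytometry were stimulated with anti-CD3 fixed to the plate and anti-CD28 in solution, and expanded for 5 days with recombinant mouse IL-2 (100 U/ml). The protocol text does not differ between the libraries, and the cells labelled freshly isolated were taken as uncultured from their treatment label. Receptor stimulation, time in culture and IL-2 cannot be told apart in this comparison. Each group is 1 library, so the differences have no replicate check and no p-value. Intervals are exact 95% intervals for counting error only, since reads are not independent molecules.

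AP-1 is a dimer of proteins that bind DNA through a basic region and pair through a leucine zipper. JUN proteins pair with one another or with FOS proteins, whereas FOS proteins need a JUN partner. Fos, Fosb, Jun, Junb and Atf3 are immediate early genes, whose transcripts appear within minutes of receptor stimulation or stress and decay quickly. BATF and BATF3 lack the activation domains of FOS, pair with JUN proteins, and bind with IRF4 or IRF8 at composite sites in activated lymphocytes.

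Total counts were 20379385 (freshly isolated) and 22204099 (expanded), so that 1 count equalled 0.0465 and 0.0476 CPM. Of 8 T cell markers measured, 6 were within 4-fold and 2 were lower by more, and Cd3e stood at 734 and 688 CPM. Trdc and Tcrg-C1, constant genes of the δ and γ chains, were also listed as markers but were not found under those symbols. They therefore gave no check of γδ identity. The αβ T cell markers Cd4, Cd8a, Cd8b1 and Foxp3 summed to 18.8 CPM (freshly isolated) and 11.9 CPM (expanded). Of these 4, 2 were at least 4-fold lower in the expanded library and 1 was at least 4-fold higher. The freshly isolated library also held markers of other spleen cells. The 15 monocyte and macrophage markers summed to 1035 CPM there and 24.1 CPM in the expanded library, where 9 were at 0 counts. The 9 B cell markers summed to 922 and 3.81 CPM, the 10 dendritic cell markers to 1298 and 14.6 CPM, and the 4 erythroid markers in the table to 69.1 and 0.0951 CPM. A few genes held most of the B cell and dendritic cell sums. In the freshly isolated library Jchain alone stood at 784 CPM. Of the dendritic cell list, Cd74 stood there at 582 CPM and H2-Aa at 227 CPM, against 6.46 CPM for Flt3 and 1.67 CPM for Clec9a. The sums therefore do not rank these cell types by amount.

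The promoters of Fos, Fosb, Jun and Junb, the members furthest down in the expanded library, are shown beside that of Batf, which was higher in the expanded library. RefSeq promoter sequences on GRCm38.p6 matched 9 of the 10 genes, all but Fosl1. Each sequence runs 5′ to 3′ on the strand of its gene and ends at position -1 from the RefSeq start, except that of Batf, which ends at position -61. The regions are chr12:85473640-85473889 (plus strand) for Fos, chr7:19310046-19310295 (minus strand) for Fosb, chr4:95052223-95052472 (minus strand) for Jun, chr8:84978749-84978998 (minus strand) for Junb and chr12:85686470-85686659 (plus strand) for Batf. Capitals mark TGACG, the core of the cyclic AMP response element (CRE), which CREB and ATF proteins bind.
Fos: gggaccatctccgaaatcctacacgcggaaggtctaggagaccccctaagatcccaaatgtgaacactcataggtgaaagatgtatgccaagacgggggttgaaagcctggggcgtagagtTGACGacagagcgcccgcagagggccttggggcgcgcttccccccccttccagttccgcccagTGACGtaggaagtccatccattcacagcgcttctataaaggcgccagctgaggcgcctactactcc
Fosb: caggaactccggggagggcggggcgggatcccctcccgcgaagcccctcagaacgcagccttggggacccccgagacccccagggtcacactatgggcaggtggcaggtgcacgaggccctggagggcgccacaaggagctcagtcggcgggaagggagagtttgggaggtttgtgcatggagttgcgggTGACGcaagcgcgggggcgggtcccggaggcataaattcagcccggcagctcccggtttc
Jun: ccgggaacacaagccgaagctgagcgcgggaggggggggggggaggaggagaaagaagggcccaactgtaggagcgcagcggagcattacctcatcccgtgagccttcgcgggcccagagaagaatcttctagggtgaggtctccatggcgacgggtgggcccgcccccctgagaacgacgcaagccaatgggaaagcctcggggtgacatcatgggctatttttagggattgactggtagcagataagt
Junb: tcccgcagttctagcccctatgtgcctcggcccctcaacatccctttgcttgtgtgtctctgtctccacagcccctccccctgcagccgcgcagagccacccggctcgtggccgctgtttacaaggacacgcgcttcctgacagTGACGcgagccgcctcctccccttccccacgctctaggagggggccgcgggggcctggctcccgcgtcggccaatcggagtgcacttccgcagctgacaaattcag
Batf: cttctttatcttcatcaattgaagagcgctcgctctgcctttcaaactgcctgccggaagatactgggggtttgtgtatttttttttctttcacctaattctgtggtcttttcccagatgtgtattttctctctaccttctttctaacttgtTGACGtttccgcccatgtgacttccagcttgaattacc

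Windows from 250 bases before to 50 bases after the RefSeq start were searched on both strands. TGACG was present in 5 of the 9 member promoters and in 20.8% of all 32851 promoters of that length. It lay at positions -129 to -125 and -66 to -62 of Fos, -60 to -56 of Fosb and -106 to -102 of Junb, counted from the start. It also lay at -98 to -94 of Batf and, on the other strand, at -7 to -3 of Atf3. The RefSeq start used for Atf3 (191183333) lies inside the deposited span of that gene, which starts at 191218039 on the minus strand. That of Batf3 (191098414) also lies inside its deposited span, which starts at 191097880. The motif was therefore found both in promoters of genes that were lower in the expanded library and in that of Batf. The full CRE, TGACGTCA, which contains TGACG, was in none of the 9 windows and in 1.79% of all. The AP-1 site in its form TGANTCA was likewise in none of the 9 and in 7.81% of all. The CArG box, the site of serum response factor, was in none and in 1.63% of all. Variants of the CRE and the AP-1 site were not searched for. The Jun sequence shown holds TGACATCA, which neither TGACGTCA nor TGANTCA matches. These are matches of letters in a short window and not sites of binding. Sites more than 250 bases before the start were not searched, so a motif absent here may lie further upstream.

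Fos, Fosb and the 3 JUN transcripts ranked between the 4th and the 42nd highest of the freshly isolated library in CPM per kb of gene length. They were between 4.05-fold (Jund) and 4657-fold (Fosb) lower in the expanded library, whereas Fosl1, Batf and Batf3 were higher in the expanded library. Of the 10 genes, 6 were at least 4-fold lower (Fosb, Fos, Junb, Jun, Atf3 and Jund), against 13.5% of the 11715 genes tested. Only Fosl1 was higher by 4-fold or more, against 8.92% of genes tested. On the log2 scale, the median fold (expanded over freshly isolated) was -2.90 over the members and 0.04 over all genes tested. Closest to the threshold were Jund, just inside at a log2 fold of -2.02, Batf3, outside at 1.88, and Fosl2, outside at -1.86. The members took 1.54% of all counts of freshly isolated cells (interval 1.53 to 1.54) and 0.0934% of those of expanded cells (interval 0.0921 to 0.0946). In bulk RNA, fewer cells of a type and less RNA per cell cannot be told apart.

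**Figure D1:**
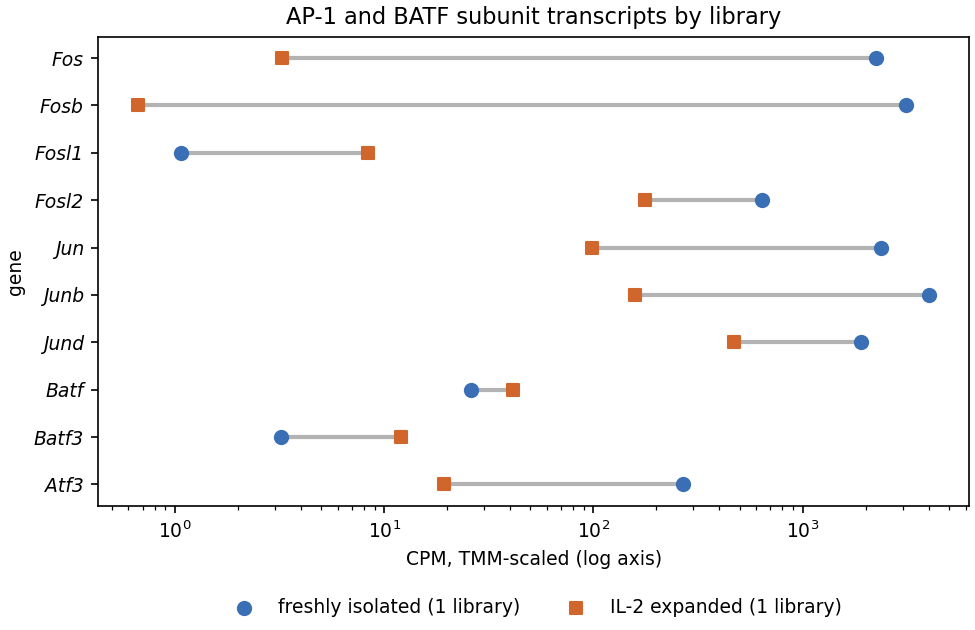
Level of each member gene in CPM on a log axis, with 1 point for the freshly isolated library (circle) and 1 for the IL-2 expanded library (square). Circles of Fos, Fosb, Jun, Junb and Jund lie between 1890 and 4020 CPM, and squares lie to the right of circles for Fosl1, Batf and Batf3.

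The FOS family held both the member furthest down and the member furthest up. Fosb, on chromosome 7 from 19302696 to 19310045 (build GRCm38, coordinates as deposited), had 66753 counts (3101 CPM) in the freshly isolated and 14 counts (0.666 CPM) in the expanded library. It was 4657-fold lower (interval 2775 to 8518), the second lowest fold of all genes tested, and its level in CPM per kb was the 28th highest of the table in one library and the 11715th in the other. Fos, the prototype of the family (chromosome 12, 85473901 to 85477270), had 48154 counts (2237 CPM) and 68 counts (3.23 CPM). It was 692-fold lower (interval 545 to 891), the 14th lowest fold. The deposited counts do not separate full-length Fosb transcripts from those of its truncated form ΔFosB.

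Fosl2, which encodes FRA2, had the highest level per kb of the FOS family in the expanded library. It stood at 641 CPM (13787 counts) in freshly isolated and 177 CPM (3711 counts) in expanded cells, 3.63-fold lower (interval 3.50 to 3.76). Fosl1, which encodes FRA1, had 23 counts (1.07 CPM) and 176 counts (8.37 CPM), 7.84-fold higher (interval 5.06 to 12.7). Low counts made its interval the widest, relative to its fold, among the members that were higher. Its deposited span overlaps that of Ccdc85b on the opposite strand, which had 307 and 169 counts, and the use of strand in counting was not given in the sources used here. Summed over the 4 genes, FOS family transcripts stood at 5980 and 189 CPM, 31.7-fold lower.

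All 3 JUN family genes were at least 4-fold lower in the expanded library, by different amounts. Junb (chromosome 8, 84976909 to 84978748), which often restrains the activity of JUN, was the member of highest level in the freshly isolated library, at 4020 CPM against 159 CPM (86537 and 3333 counts). It was 25.4-fold lower (interval 24.5 to 26.3). Jun (chromosome 4, 95049036 to 95052222) stood at 2370 and 98.8 CPM (51013 and 2076 counts), 24.0-fold lower (interval 23.0 to 25.1). The counting intervals of the Jun and Junb folds overlapped.

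Jund, the family member that is commonly present in resting cells, was lower by a smaller factor. It stood at 1890 and 467 CPM (40686 and 9822 counts), 4.05-fold lower (interval 3.96 to 4.14), and was the member with the highest level in the expanded library. The interval of its fold reached under 4-fold. Summed JUN family transcripts stood at 8280 and 725 CPM, 11.4-fold lower. An antisense gene is annotated in GENCODE M21 within the span of Jun (Junos) and of Jund (Gm11175), so part of these counts could belong to it.

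Atf3, a stress-induced factor that pairs with JUN proteins and can repress its targets, stood at 269 and 19.4 CPM (5786 and 408 counts), 13.8-fold lower (interval 12.5 to 15.3). Its fold lay between those of Jun and Jund. The BATF genes were low in the freshly isolated library and moderately higher in the expanded library. Batf (chromosome 12, 85686720 to 85709087) had 560 counts (26.0 CPM) and 866 counts (41.2 CPM), 1.58-fold higher (interval 1.42 to 1.76). Batf3 had 69 counts (3.21 CPM) and 254 counts (12.1 CPM), 3.77-fold higher (interval 2.88 to 4.99). BATF3 is known as a factor of the dendritic cells that express Clec9a and Xcr1. Clec9a had 36 counts in the freshly isolated and 1 count in the expanded library, and Xcr1 had 3 and 4 counts. Both of these markers fell below the filter on low values, and the part of dendritic cells in the Batf3 transcripts was not tested. Neither BATF gene reached 4-fold.

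**Figure D2:**
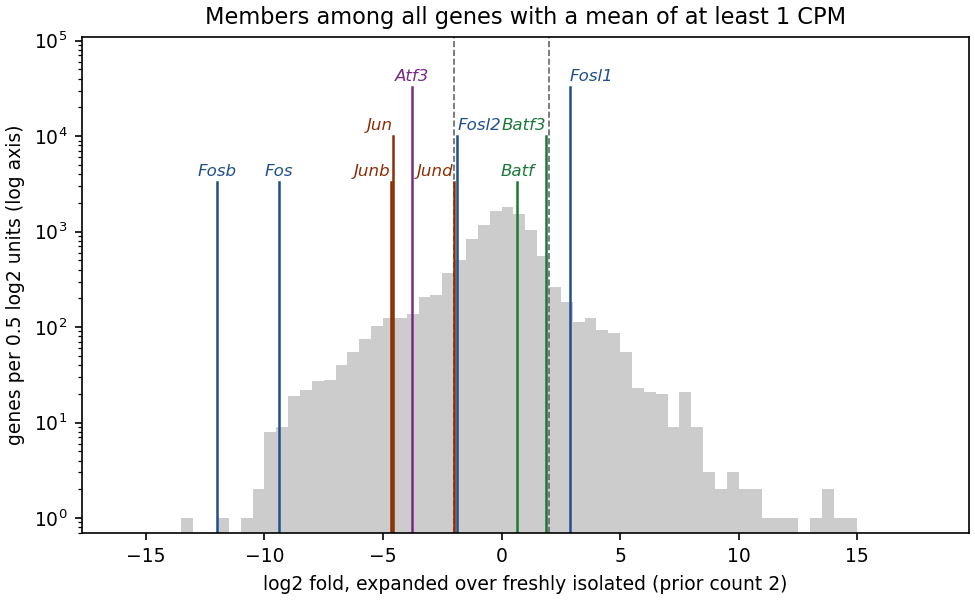
Histogram of log2 folds (expanded over freshly isolated) of the 11715 genes tested, on a log count axis, with a labelled line for each member and dashed lines at 4-fold. Fosb and Fos lie in the far lower tail at -11.99 and -9.39, and Fosl1, at 2.86, is beyond the upper dashed line.

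Levels of different genes were compared within each library as CPM per kb of the deposited gene length, a comparison that does not depend on the scaling between libraries. In the freshly isolated library the order was Junb (2186 CPM per kb), Fos (1070), Fosb (822), Jun (744), Jund (657), Atf3 (126), Fosl2 (104), Batf (28.9), Batf3 (2.63) and Fosl1 (0.628). Every pair of neighbours in this order was apart by more than its counting interval. In the expanded library the order was Jund (162 CPM per kb), Junb (86.2), Batf (45.7), Jun (31.0), Fosl2 (28.6), Batf3 (9.93), Atf3 (9.07), Fosl1 (4.92), Fos (1.55) and Fosb (0.177). There only Batf3 and Atf3 did not differ beyond counting error, at a ratio of 1.10 (interval 0.933 to 1.28). Fos and Fosb thus followed Junb in the freshly isolated library and stood last in the expanded library. The deposited length of Jund is 2.88 kb, against 1.67 kb for its longest GENCODE M21 transcript. With GENCODE lengths Jund came before Fos in the freshly isolated library, at 1133 against 1061 CPM per kb, and stayed first in the expanded library, at 280 CPM per kb. The place of Batf before Jun in the expanded library held with deposited and GENCODE lengths only. Their ratio there was 0.417 from plain counts and 0.0594 per kb of gene span.

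Within the freshly isolated library, Fosb and Fos were near each other, at a Fosb to Fos ratio per kb of 0.768 (interval 0.759 to 0.777). In the expanded library this ratio was 0.114 (interval 0.0593 to 0.205), from 14 and 68 counts. The Fos to Jun ratio was 1.44 (interval 1.42 to 1.46) in freshly isolated and 0.0499 (interval 0.0386 to 0.0636) in expanded cells. Which of the pair was higher in freshly isolated cells depended on the length used, since the Fos to Jun ratio there was 0.944 from plain counts and 0.893 per kb of gene span, and Jun was the higher in expanded cells by each. The Fosb to Fos ratio in freshly isolated cells likewise came to 1.39 from plain counts. The fold between the libraries of any such ratio does not depend on length. The Fosl2 to Fos ratio, 0.0971 (interval 0.0953 to 0.0990), was 18.5 (interval 14.6 to 23.9) in expanded cells.

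Among JUN transcripts, the Junb to Jun ratio was similar in the libraries, at 2.94 (interval 2.91 to 2.97) and 2.78 (interval 2.63 to 2.94). The Jund to Junb ratio was 0.301 (interval 0.297 to 0.304) in freshly isolated and 1.88 (interval 1.81 to 1.96) in expanded cells, or 0.510 and 3.20 with GENCODE transcript lengths. The Fosl2 to Jund ratio was 0.158 (interval 0.155 to 0.161) and 0.176 (interval 0.170 to 0.183), or 0.0865 and 0.0964 with GENCODE lengths. Jun with Junb, and Fosl2 with Jund, thus kept nearly the same proportion while the proportions between the pairs differed. The Atf3 to Jun ratio was 0.169 (interval 0.164 to 0.173) and 0.292 (interval 0.262 to 0.325).

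BATF and FOS proteins compete for JUN partners, so their transcripts were set against each other. The Batf to Fos ratio was 0.0270 (interval 0.0248 to 0.0293) in freshly isolated and 29.5 (interval 23.1 to 38.4) in expanded cells. Most of that difference lay in Fos, since Batf itself was 1.58-fold higher. The Batf to Junb ratio was 0.0132 (interval 0.0121 to 0.0144) and 0.530 (interval 0.492 to 0.572), so that Junb remained the more abundant. Against Fosl2, Batf stood at 0.278 (interval 0.255 to 0.302) and 1.60 (interval 1.48 to 1.72), the latter being 0.233 from plain counts. The Batf3 to Batf ratio was 0.0912 (interval 0.0700 to 0.117) and 0.217 (interval 0.188 to 0.250).

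**Figure D3:**
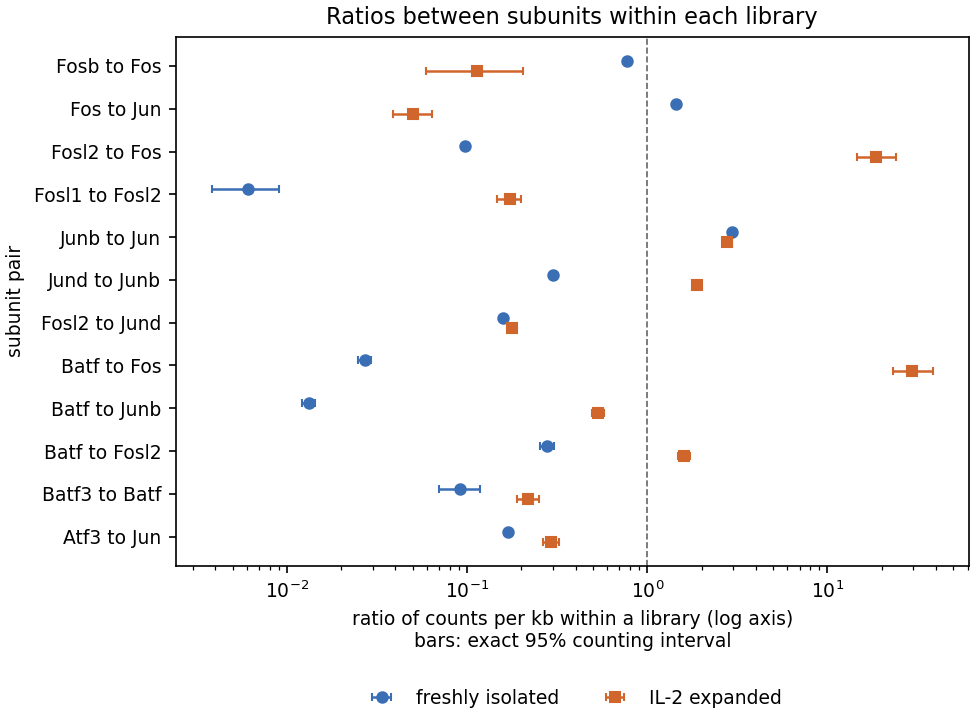
Ratios of counts per kb between pairs of members within the freshly isolated (circles) and IL-2 expanded (squares) library, on a log axis with exact 95% counting intervals and a dashed line at equal level. Batf to Fos moves from 0.0270 to 29.5, whereas Junb to Jun stays near 2.94 and 2.78.

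As shares of the summed level per kb of all 10 genes, the JUN family made up 62.5% in freshly isolated and 73.7% in expanded cells. The FOS family made up 34.8% and 9.30%, the BATF family 0.549% and 14.7%, and Atf3 2.19% and 2.39%. Jund alone made up 11.4% and 42.8%, or 18.1% and 56.5% with GENCODE transcript lengths, and Batf 0.503% and 12.04%. Of FOS and JUN transcripts together, the JUN family held 64.2% and 88.8% per kb, or 58.1% (interval 57.9 to 58.2) and 79.3% (interval 78.7 to 79.9) of plain counts. The BATF to FOS family ratio was 0.0158 and 1.58 per kb, but 0.282 in expanded cells from counts not divided by length, because the deposited length is 6.16 kb for Fosl2 and 0.901 kb for Batf. Which of these families was the more abundant in expanded cells thus depended on the use of length, and the higher ratio in expanded cells did not.

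**Figure D4:**
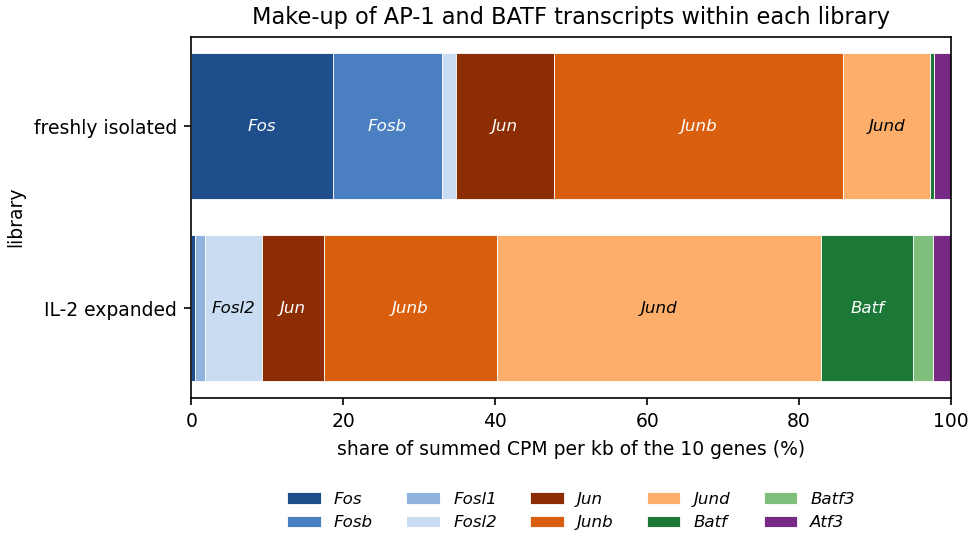
Share of each member in the summed CPM per kb of the 10 genes, as 1 stacked bar per library from 0 to 100%. With the deposited lengths, Fos and Fosb take 18.6% and 14.3% of the freshly isolated bar and under 1% each of the expanded bar, where Jund takes 42.8%.

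For each member with a mean of at least 10 CPM, the genes nearest in level in both libraries were found by distance in log2(CPM + 1), over 2 libraries only. Nearest to Fos were Klf2, a factor of lymphocyte quiescence and homing (2284 and 3.47 CPM, distance 0.08), and the chemokine receptor gene Cxcr4 (1944 and 5.09 CPM, distance 0.56). Fosb had no near neighbour, the closest being Klf2 (distance 1.49) and the nuclear receptor gene Nr4a1 (distance 1.54). Nearest to Jun were Zfp36, which encodes an mRNA decay factor (1752 and 58.2 CPM, distance 0.87), and Btg1 (distance 0.93). Junb was nearest to Klf6 (4671 and 206 CPM, distance 0.44) and Gimap6 (distance 0.69), and Jund to Ets1 (1609 and 505 CPM, distance 0.26) and Stk17b (distance 0.46). Fosl2 was nearest to Srsf5 and Itgb7, Atf3 to Ctss and Ifi203, and Batf to Crcp and Ints12, all within a distance of 0.28.

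Transcripts of immediate early and tissue dissociation genes, outside the members, were also mostly lower. Of 30 genes in that list, 17 were lower by 4-fold or more and 1, Ier3, was higher by as much (4.23 and 48.6 CPM), with a median log2 fold of -2.90. Klf2 and Nr4a1 (1263 and 1.95 CPM) were furthest down. The list includes heat shock genes, which went both ways. Hspa1a, chosen after its values were seen, stood at 21.5 and 0.143 CPM and Hspe1, second furthest up, at 27.0 and 73.8 CPM. In the same direction, 13 of 14 monocyte and macrophage markers tested, 8 of 8 B cell markers and 6 of 7 dendritic cell markers were at least 4-fold lower. In the freshly isolated library the macrophage marker of highest level per kb, Lyz2, stood at 66.8 CPM per kb. There the B cell marker Jchain stood at 374, Cd74 of the dendritic cell list at 414 and Fos at 1070 CPM per kb. Marker levels do not show how much Fos those cells carried. The part of tissue handling and of other cell types in the lower FOS and JUN transcripts was not tested.

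Other bZIP factors, which share the zipper fold with AP-1, went both ways. Of 26 tested, 6 were lower and 2 higher by 4-fold or more (median log2 fold -0.29), against 13.5% and 8.92% of all genes tested. Cebpa, a myeloid factor, was among those furthest down, with 158 counts and 1 count. Creb5 (0.139 and 3.19 CPM, from 3 and 67 counts) and Atf5 (8.41 and 36.3 CPM) were furthest up. Genes of kinases and serum response factors upstream of AP-1 mostly lay within 4-fold (median -0.30). Of 21 tested, 3 were past it and lower and none past it and higher, against 13.5% and 8.92% of all genes tested. Elk4, a partner of serum response factor, stood at 249 and 47.1 CPM and Mapk8, which encodes the JUN kinase JNK1, at 58.2 and 12.7 CPM, while Hras (21.2 and 80.9 CPM) was furthest up.

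Of 8 partners at composite sites, 1 was higher by 4-fold or more and none was lower by as much (median -0.32). Over all genes tested these shares were 8.92% and 13.5%. The higher gene was Irf8, a BATF partner, at 45.8 and 382 CPM, and Irf4, next furthest up, stood at 42.1 and 54.9 CPM. Runx1 (77.3 and 19.7 CPM) and Ets1 were furthest down. Genes known to carry AP-1 or BATF sites were found on either side: of 17 tested, 6 were higher by 4-fold or more and 6 lower by as much (median -0.92). Spp1 (0.186 and 3741 CPM, from 4 counts in the freshly isolated library) and Gzmb (15.2 and 28245 CPM) were furthest up. Cd40lg (306 and 0 counts) and Plaur, the urokinase receptor gene (37.4 and 0.333 CPM), were furthest down.

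**Figure D5:**
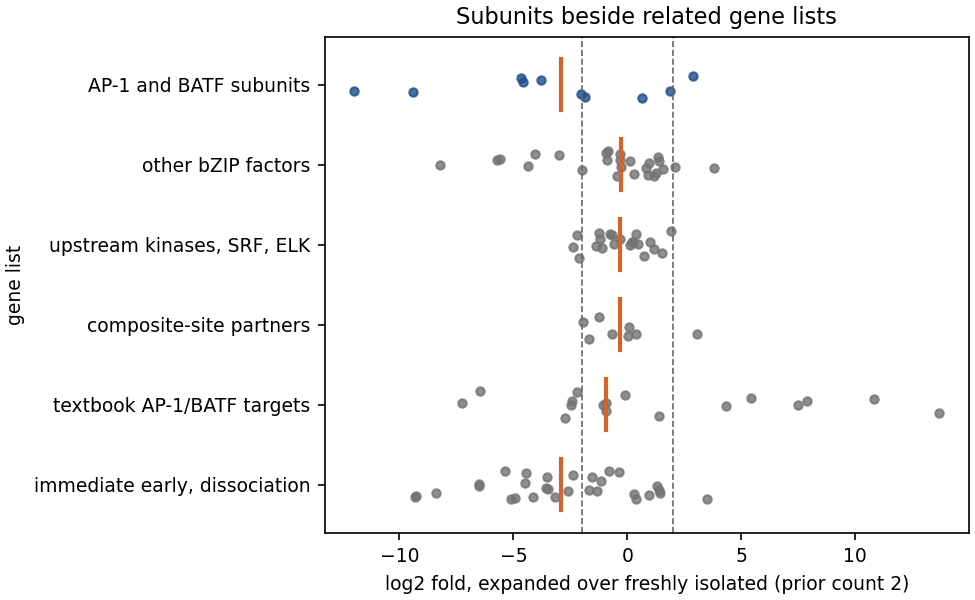
Log2 folds (expanded over freshly isolated) of the 10 members and of the tested genes of 5 related lists, with 1 point per gene, an orange bar at each median and dashed lines at 4-fold. The medians of the members and of the immediate early list are both -2.90, and those of the other lists lie between -0.92 and -0.29.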

How the data were processed

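The authors deposited whole-number read counts per gene in 1 column per library, not normalised, with gene spans and a gene length in kb whose definition the file does not give. Per the submitters' processing notes, the tools included the aligner STAR (2.6.0), the counter HTSeq (0.6.0) and the package edgeR (3.28.1), and the build was mm10, also named GRCm38. Settings, annotation and strand use are not given in the sources used here.

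Columns were matched to libraries by name. Counts were scaled with TMM factors (1.06 and 0.947, freshly isolated and expanded) from edgeR 4.0.16 in R 4.3.3. Single-gene folds are ratios of CPM, and log2 folds and counts of genes past 4-fold use a prior count of 2. Intervals are Clopper-Pearson intervals of the conditional binomial. A count of 0 allows up to 0.139 and 0.143 CPM (3 counts). With 1 library per group no test could be fitted. On simulated Poisson counts of 11731 genes for this comparison, 100% of 200 genes changed 8-fold were counted in the right direction and 95.3% of intervals held the true fold. These counts followed the model that the intervals assume, so the run checked the calculation only. As many genes were changed up as down, unlike in the data, so the scaling was not checked under such a shift. All 10 members are named, with the 2 genes nearest to each member of at least 10 CPM and the 2 genes furthest up and furthest down of each related list, of which 1 is not reported here. Single markers, and other genes where the text says so, were chosen after their values were seen. The members and lists were chosen with earlier results of these data known. Alternatives were other scalings (total count, DESeq2 1.42.0 size factors, upper quartiles), prior counts of 0.5 and 5, no filter or 5 CPM, and other lengths.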

Additional observations from a re-analysis of the deposited data

How the results depend on the processing

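No paired analysis was possible because each group has 1 library, and no library could be left out. The direction of every member was the same under all scalings and prior counts run. The log2 fold ranged from -12.14 to -11.75 for Fosb, from -9.55 to -9.33 for Fos and from 0.50 to 0.66 for Batf. With total count scaling, which moved the median of all genes by -0.16, 7 members were at least 4-fold lower, Fosl2 being added at -2.02. With a filter of 5 CPM, 0 members were at least 4-fold higher because Fosl1 was left out, and 992 genes in all were at least 4-fold lower. The JUN share of FOS and JUN transcripts, freshly isolated and expanded, was 58.1% and 79.3% without division by length, 76.3% and 96.4% per kb of gene span, 67.4% and 92.3% with GENCODE transcript lengths (chosen after seeing the data) and 41.2% and 84.6% without Junb. Without Fos it was 79.5% in freshly isolated cells. The BATF to FOS ratio was 0.00489 and 0.282 without division by length, 0.00130 and 0.284 per kb of gene span, and 0.00132 and 0.281 without Batf. Without Fos it was 0.0340 in freshly isolated cells. Other lengths for ratios between single members, and for their shares, were also chosen after seeing the data. The JUN share and the BATF to FOS ratio were both higher in expanded cells under each of these settings. The widest intervals relative to the fold were those of Fosb (14 counts in expanded cells) and Fosl1 (23 counts in freshly isolated cells), and variation between cultures or animals is not known.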

Other observations

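Among immediate early genes, chosen here after their values were seen, some were within 2-fold where Fos and Fosb were not. Egr1, an early target of receptor signalling, stood at 388 CPM in the freshly isolated and 297 CPM in the expanded library. Egr3 stood at 23.3 and 30.4 CPM, Nr4a3 at 142 and 81.5 CPM and Myc at 116 and 143 CPM. Egr1 rested on 8344 and 6251 counts, and Fos on 48154 and 68.

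Fos, Jdp2 and Batf are neighbours on chromosome 12 in the deposited table, with Batf starting 213 kb from the start of Fos and no other listed gene in between. Jdp2, which encodes a JUN dimerization protein of the same fold, lies between them and stood at 13.2 and 25.8 CPM, 1.95-fold higher in the expanded library. Jdp2 and Batf were thus both higher where Fos was 692-fold lower. Batf3 and Atf3 are near each other on chromosome 1, with Atf3 13.8-fold lower and Batf3 3.77-fold higher.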
